A study of Rattus norvegicus with 12 samples.

Results

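The genes described here are 10 rat genes of class II antigen presentation: the chains RT1-Ba and RT1-Bb, the chains RT1-Da and RT1-Db1, the invariant chain Cd74, the peptide editor RT1-DMa and RT1-DMb, its inhibitor RT1-DOa and RT1-DOb, and the regulator Ciita. They were found by matching the RefSeq transcript of each probe to the gene symbol, which gave 10 of the 13903 genes named on the array, each by 1 probe printed as 1 spot. The set was chosen with its values on these arrays in view, so its differences between days are given as a description, with standard errors and without p-values. The study followed vein grafts in male rats in which an external jugular vein was placed as a bypass of the carotid artery. Total RNA from vein was hybridised to 12 single-colour arrays, 3 from rats without grafting surgery (day 0) and 3 each from grafts 7, 14 and 28 days after surgery. The labels give neither strain nor age, and they do not say that each array was a separate animal, so the errors measure the spread between these arrays, which may in part be technical. Each tissue was a whole vessel, and in such bulk RNA fewer cells of a type and less RNA per cell cannot be told apart.

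Class II molecules are pairs of an alpha and a beta chain that carry peptides from endocytosed protein to the cell surface, where CD4 T cells read them. In the rat, RT1-B and RT1-D are the surface pairs that correspond to human DQ and DR. The invariant chain CD74 guides new pairs to the endosome and blocks their groove, DM exchanges its last fragment for peptide, and DO restrains DM. Ciita encodes the coactivator that switches the family on; it binds no DNA itself but joins a complex of RFX, NF-Y and CREB proteins seated on the X and Y boxes of each promoter. Dendritic cells, macrophages and B cells make class II all the time or readily, and vessel wall cells can be made to do so by interferon-gamma.

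The promoters are shown because the X and Y boxes are what the family is known to share. The RefSeq promoter table for the GRCr8 assembly held 8 of the 10 genes; RT1-DMb and Ciita are not shown. Each line gives 60 bases of the region upstream of the transcription start, 5′ to 3′ on the gene's strand, with the Y box core ATTGG and an X box core of the form ACNGATG in capitals; in Cd74 the Y core lies on the other strand and its complement is in capitals.
RT1-Ba (chr20:4576969-4577028, plus strand): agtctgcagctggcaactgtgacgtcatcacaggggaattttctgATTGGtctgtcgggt
RT1-Bb (chr20:4604165-4604224, minus strand): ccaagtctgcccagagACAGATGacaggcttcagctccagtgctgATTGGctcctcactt
RT1-Da (chr20:4515321-4515380, plus strand): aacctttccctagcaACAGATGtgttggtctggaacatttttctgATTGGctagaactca
RT1-Db1 (chr20:4560228-4560287, minus strand): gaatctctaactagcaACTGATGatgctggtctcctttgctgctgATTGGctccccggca
Cd74 (chr18:56526972-56527031, plus strand): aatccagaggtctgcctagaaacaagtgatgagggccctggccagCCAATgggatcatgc
RT1-DMa (chr20:4712385-4712444, minus strand): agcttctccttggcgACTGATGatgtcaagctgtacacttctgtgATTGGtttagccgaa
RT1-DOa (chr20:4758516-4758575, minus strand): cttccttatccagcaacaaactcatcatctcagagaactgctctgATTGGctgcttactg
RT1-DOb (chr20:4627592-4627651, minus strand): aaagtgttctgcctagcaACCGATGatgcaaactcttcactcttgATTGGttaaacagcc

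Searched on both strands over the 250 bases upstream of the start, ATTGG was found in 8 of these 8 promoters and in 34% of all 33469 promoters of the table. The longer form CTGATTGG, which contains ATTGG, was found in 5 of 8, against 3.19% of all. The X core ACAGATG stood within 50 bases before ATTGG in RT1-Bb and RT1-Da, against 0.212% of all promoters. The wider form ACNGATG, chosen after these sequences were read, stood there in 5 of 8, with 20 to 23 bases between the cores, against 0.412% of all. A match describes letters only: RT1-Ba, RT1-DOa and Cd74 lack this spelling of the X core, which shows nothing about what binds there. The 8 RT1 genes lie near one another on chromosome 20, in the order Da, Db1, Ba, Bb, DOb, DMb, DMa and DOa.

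Levels are log2 intensities relative to the array's own 75th percentile of all probes, so 0 is a fairly bright probe and each unit is a doubling. Of 42136 gene spots, 71.9% to 82.6% per array were well above background by the scanner software, and none was saturated. Spots of uneven signal numbered 460 on day 0 replicate 3 and 393 on day 7 replicate 3, against 2 to 11 on each of the others. The arrays came from 4 scans that did not hold every day: the day 7 arrays shared a scan with day 14 replicate 1, day 0 replicates 1 and 2 shared one with day 28 replicate 3, day 0 replicate 3 was alone, and the other 4 arrays shared one. Markers of the vein wall were present at day 0: the 6 smooth muscle genes summed to 717 to 1231 times the 75th percentile and the 6 endothelial genes to 45.4 to 58.7 times it.

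Most of the family was higher in grafts than in unoperated vein on each day sampled, and the day 14 mean was the highest of the 4 days for all 10 genes. At day 7, 8 of the 10 were higher than at day 0 and RT1-Bb was lower; at day 14, 8 were higher; at day 28, 7 were higher. These counts are of genes with an adjusted p under 0.05 in limma over 21063 probes, where 17.7%, 20.1% and 17.4% of all probes were higher by the same rule and 15.4% were lower at day 7. The members' median difference from day 0 was 3.64 (day 7), 4.61 (day 14) and 3.00 (day 28), where the medians over all probes were -0.03, 0.02 and 0.01. Day 7 lay clear above day 0 for 8 of 10 genes (19.8% of all probes), day 14 for 9 (25.9%) and day 28 for 7 (23.9%). The 3 differences share the day 0 arrays. With the scan as a fixed block the median kept its sign. Then 0 members passed at day 7, 2 at day 14 (RT1-Db1 and Ciita) and 1 at day 28 (Ciita). The same block called 55 probes of the whole array at day 7, against 6977 without it. No day 7 or day 14 array shared a scan with a day 0 array. With this block their differences from day 0 were therefore reached only through arrays of other days. Day 0 replicate 3, alone in its scan, did not enter them.

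**Figure D1:**
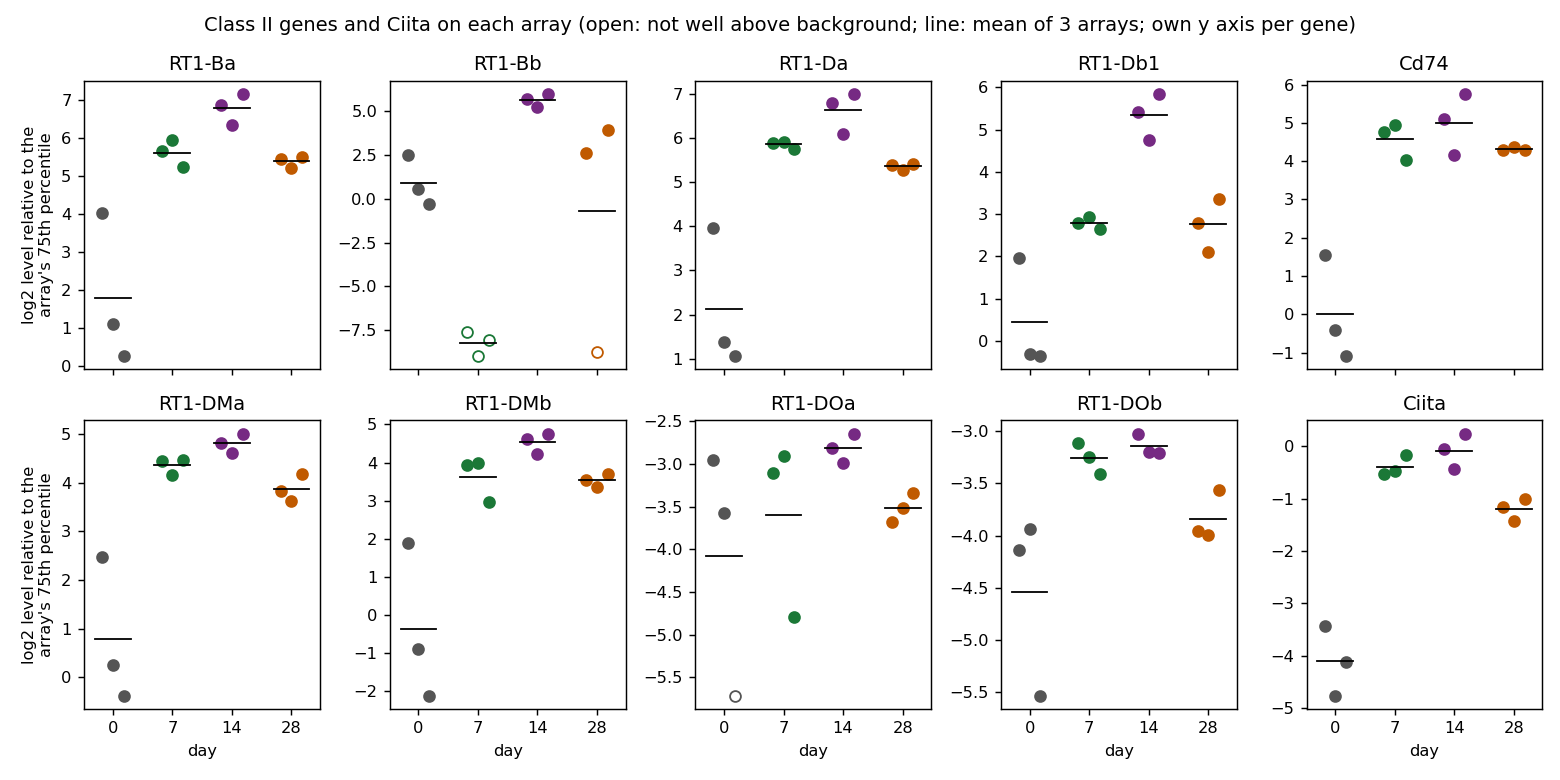
Level of each gene on each of the 12 arrays, as log2 relative to the array's 75th percentile (y axis, its own range for each gene), by day (x axis); points are arrays in replicate order, lines are means of 3, and open points were not well above background. Day 14 holds the highest mean for all 10 genes, day 0 the lowest for 9, and RT1-Bb falls to the background level on 4 arrays.

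The RT1-D pair, the rat counterpart of human DR, was already detected in unoperated vein. RT1-Da, its alpha chain, stood at 3.97, 1.37 and 1.06 at day 0, at 5.89, 5.92 and 5.76 at day 7, at 6.79, 6.10 and 7.00 at day 14, and at 5.39, 5.28 and 5.42 at day 28. Its 4 days did not overlap, in the order 14, 7, 28 and 0. The differences from day 0 were 3.72, 4.49 and 3.23 (SE 0.61, n = 3 against 3), or 13.2-fold, 22.5-fold and 9.37-fold.

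RT1-Db1, the beta chain, had a sharper peak. Its day 0 levels were 1.97, -0.30 and -0.36, and its day 7 levels were 2.78, 2.93 and 2.66. At day 14 they reached 5.42, 4.76 and 5.84, and at day 28 they were 2.80, 2.10 and 3.37. Day 14 stood clear of the other days, while days 7 and 28 overlapped. The differences from day 0 were 2.35, 4.90 and 2.32 (SE 0.58). The day 7 and day 28 calls were lost with only the compared arrays in the fit, and the day 7 call without both arrays of uneven signal, where the difference was 2.02.

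In the RT1-B pair, counterpart of human DQ, the alpha chain followed RT1-Da. RT1-Ba stood at 4.03, 1.11 and 0.26 at day 0, at 5.64, 5.95 and 5.22 at day 7, at 6.87, 6.32 and 7.14 at day 14, and at 5.44, 5.20 and 5.49 at day 28. Every graft array was above every day 0 array, day 14 was above day 7, and days 7 and 28 overlapped. The differences from day 0 were 3.80, 4.98 and 3.58 (SE 0.75).

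Its partner, the beta chain RT1-Bb, did not follow it. The day 0 levels of RT1-Bb were 2.48, 0.55 and -0.31, all well above background. On all 3 day 7 arrays the probe was not well above background, at -7.61, -8.98 and -8.05, with intensities of 4.46, 1.89 and 2.54. On the day 14 arrays it was among the brighter probes, at 5.69, 5.23 and 5.97, with intensities of 39440, 23846 and 46068. At day 28 it was bright on replicates 1 and 3, at 2.62 and 3.94, and not well above background on replicate 2, at -8.72. None of these spots was saturated or marked as an outlier.

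So the RT1-Bb probe was either bright, on 8 arrays, or at the background level, on 4 arrays, with nothing between -0.31 and -7.61. Where a group is at background, only a bound on the fold can be given, taken against the dimmest probe level that still counted as well above background. Such bounds are approximate, since the level needed differed between probes. On day 0 replicate 3 the dimmest such level was -6.81, yet RT1-DOa at -5.71 did not count. Day 7 was at least 191-fold lower than day 0 and at least 5062-fold lower than day 14. Both bounds rest on the signal as deposited. With normexp the difference was -3.51 for day 7 against day 0 and 8.16 for day 14 against day 7. The day 28 mean mixes both states, and its difference from day 0, -1.62 (SE 2.57), becomes 2.38 without replicate 2, 1.18 with array quality weights and 2.43 with the fixed scan block. The day 14 difference of 4.73 did not pass the threshold, but did without day 28 replicate 2, an array that enters it only through the shared error. Leaving out either day 0 replicate 1 (-8.33) or day 7 replicate 2 (-8.74) ended the day 7 call, as did the random scan block (-8.51), normexp background correction (-3.51), array quality weights (-8.77) and leaving out both arrays with many uneven spots (-9.81). It was also lost with the scan as a fixed block, where the difference was -2.82.

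The 4 arrays at background did not share a scan, since day 28 replicate 2 was scanned with day 14 replicates 2 and 3, on which RT1-Bb was bright. Other members were bright on these arrays: on day 28 replicate 2 RT1-Ba was 5.20 and Cd74 was 4.37. Among the 21063 probes tested, 3 were well above background on exactly the same 8 arrays, namely RT1-Bb itself, Lrrc39, a leucine-rich repeat protein, and 1 probe with no gene name. RT1-O1, a class I gene of the same chromosomal complex that was looked up after the RT1-Bb values were seen, was lowest on the same 4 arrays, at -5.38, -5.55 and -5.83 at day 7 and -5.56 on day 28 replicate 2, against -4.22 or more elsewhere. The sequences of the probes and the strain of each rat are not given in the sources used here, and their part in the pattern was not tested.

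**Figure D2:**
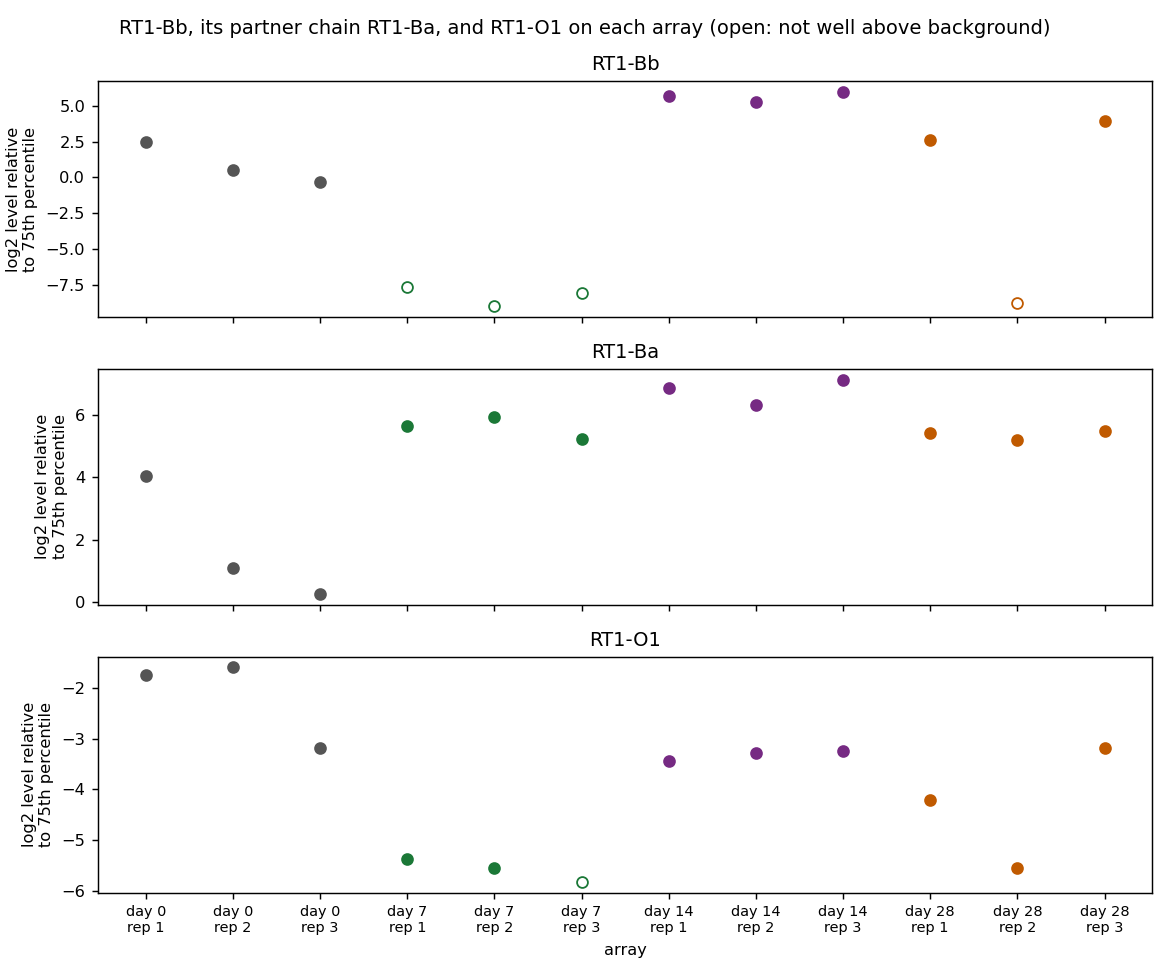
Levels of RT1-Bb, its partner chain RT1-Ba and the class I gene RT1-O1 (y axes, log2 relative to the array's 75th percentile) on each of the 12 arrays (x axis); open points were not well above background. RT1-Bb lies between -8.98 and -7.61 on the 3 day 7 arrays and day 28 replicate 2, the arrays on which RT1-O1 is lowest, while RT1-Ba is between 5.20 and 5.95 there.

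Cd74, the invariant chain, was among the members with the largest differences from day 0. It stood at 1.55, -0.40 and -1.09 at day 0, at 4.76, 4.94 and 4.04 at day 7, at 5.11, 4.15 and 5.75 at day 14, and at 4.30, 4.37 and 4.29 at day 28. All 9 graft arrays were above the day 0 arrays, and the 3 graft days overlapped one another. The differences from day 0 were 4.56, 4.98 and 4.30 (SE 0.61), or 23.6-fold, 31.6-fold and 19.7-fold.

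The peptide editor DM was higher in grafts in both subunits. RT1-DMa stood at 2.48, 0.26 and -0.38 at day 0, 4.44, 4.16 and 4.48 at day 7, 4.81, 4.61 and 5.01 at day 14, and 3.82, 3.62 and 4.17 at day 28, with differences of 3.57, 4.02 and 3.08 (SE 0.57). RT1-DMb stood at 1.89, -0.89 and -2.12 at day 0, 3.93, 3.99 and 2.96 at day 7, 4.61, 4.23 and 4.76 at day 14, and 3.53, 3.37 and 3.71 at day 28, with differences of 4.0, 4.90 and 3.91 (SE 0.79). For both subunits day 14 was the highest and did not overlap with day 7, days 7 and 28 overlapped, and day 0 was lowest.

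DO, the inhibitor of DM, changed little beside the rest. RT1-DOa stood at -2.96, -3.58 and -5.71 at day 0, the last of these not well above background, at -3.11, -2.90 and -4.79 at day 7, at -2.82, -2.99 and -2.64 at day 14, and at -3.68, -3.51 and -3.34 at day 28. Its differences from day 0, 0.48, 1.27 and 0.57 (SE 0.66), did not pass the threshold. Without day 0 replicate 1 the day 14 difference was 1.83 and passed, while without day 0 replicate 3 the 3 differences were -0.33, 0.45 and -0.25. RT1-DOb stood at -4.14, -3.94 and -5.54 at day 0, at -3.11, -3.24 and -3.41 at day 7, at -3.02, -3.20 and -3.21 at day 14, and at -3.96, -4.00 and -3.56 at day 28. Its differences of 1.29 and 1.40 at days 7 and 14 (SE 0.36) passed and that of 0.70 at day 28 did not, though it passed with quantile normalization (0.75) and in the authors' deposited table (0.77). Over the fits without 1 array the day 7 value ran from 0.79 to 1.59, the day 14 value from 0.90 to 1.70 and the day 28 value from 0.20 to 1.00. The low ends are without day 0 replicate 3, the array on which both DO genes were lowest, and the day 7 call was lost without day 7 replicate 1 (1.22). Both RT1-DOb calls were lost with normexp (1.1 and 0.47) and with only the compared arrays.

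Ciita, the regulator, stood at -3.43, -4.76 and -4.12 at day 0, at -0.52, -0.48 and -0.16 at day 7, at -0.05, -0.43 and 0.24 at day 14, and at -1.16, -1.43 and -1.0 at day 28. Every day 0 array lay below every graft array, days 7 and 14 overlapped, and day 28 lay below both. The differences from day 0 were 3.72, 4.02 and 2.91 (SE 0.32, the smallest among the 10 genes). Ciita was one of the members still past the threshold with the scan as a fixed block, at day 14 and at day 28. With normexp its differences were smaller, 2.50, 2.61 and 1.64, and all 3 passed.

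**Figure D3:**
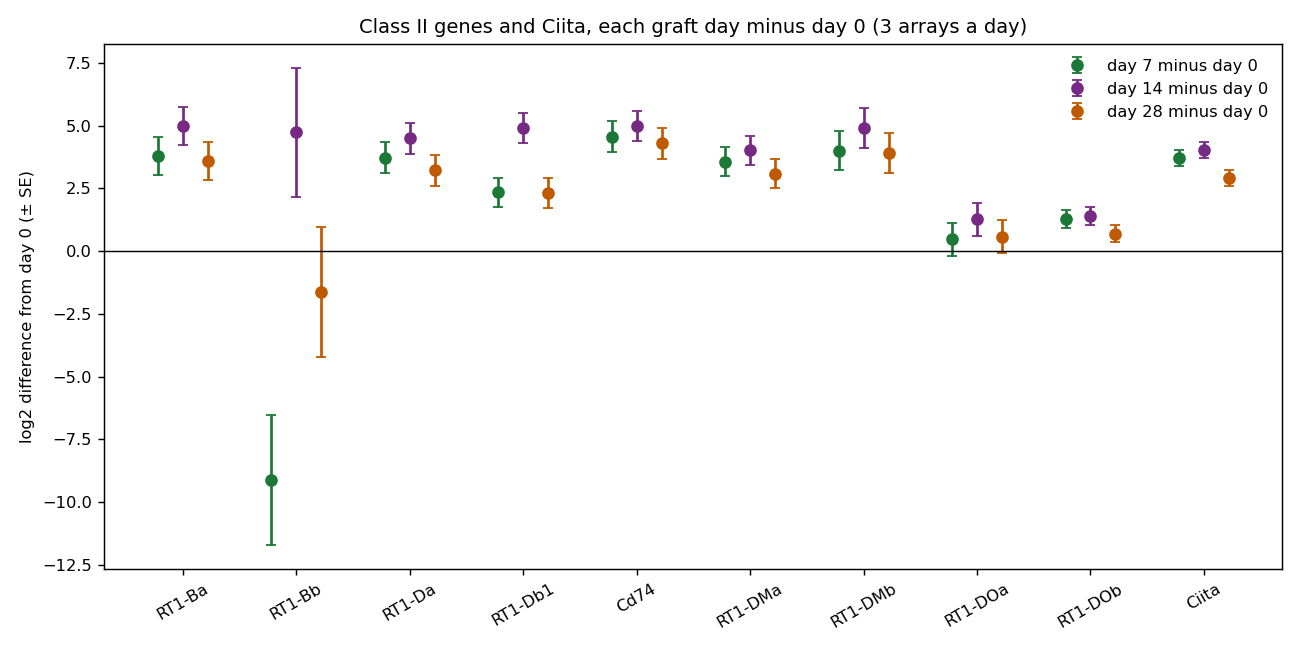
Difference of each graft day from day 0 (y axis, log2, with bars of 1 standard error) for each gene (x axis), 3 arrays a day. Differences of 8 genes at days 7 and 14 and of 7 at day 28 lie above 0 and passed the threshold; RT1-DOa is near 0 to 1.27, and RT1-Bb has a standard error of 2.57, with the 4 arrays at background in its points.

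The graft days were also set against one another. From day 7 to day 14 the members' median difference was 0.78, against 0.05 over all probes. By the threshold 2 of 10 passed, RT1-Bb and RT1-Db1 (2.55), where 3.26% of all probes passed in either direction. For RT1-Bb the bound on the signal as deposited was at least 5062-fold, since its day 7 arrays were at background. The ranges of the 2 days did not overlap for 6 of 10 genes, day 14 being higher, against 20.3% of all probes. In the scan that held all day 7 arrays and day 14 replicate 1, day 14 was higher for 10 of 10, with a median of 0.86. The RT1-Bb call was lost without day 7 replicate 1 or 2 or any 1 day 14 array, and the RT1-Db1 call without any 1 array of days 7, 14 or 28 (2.30 to 2.84); both were lost with normexp and with the scan as a fixed block, where RT1-Db1 gave 2.64.

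From day 14 to day 28 the levels were lower for every member, with a median difference of -1.06, against -0.08 over all probes. Only RT1-Db1, which fell by 2.58, passed, where 2.08% of all probes were lower by that rule; the ranges of the 2 days did not overlap, day 28 being lower, for 9 of 10 genes against 27.8% of all probes. Within the scan that held 2 arrays of each day the median was -1.14 and 0 of 10 differences were above 0. Without any 1 array of days 14 or 28, or without day 7 replicate 1, the RT1-Db1 call was lost (-2.89 to -2.26), as it was with normexp and with the fixed scan block. Without day 0 replicate 1, which entered only through the shared error, 5 members passed and 8.09% of all probes did. With only the 6 arrays compared 8 members and 30.2% of all probes passed, and with array quality weights 10 members and 78% of all probes.

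Days 7 and 28 differed least. The median difference was -0.25, and 0 of 10 members passed in limma, where 1.78% of all probes did; an unadjusted p under 0.05 was found for 2 members and 17.4% of all probes, and with normexp for 2 members and 18% of all probes. With array quality weights 8 members and 63.8% of all probes passed. RT1-Bb passed without day 28 replicate 2, against day 7 arrays at background. The ranges did not overlap for 3 of 10 genes, day 28 being lower, against 18.2% of all probes; these were RT1-Da, RT1-DOb and Ciita.

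The spread at day 0 was common to the family. Day 0 replicate 1 was the highest of the 3 for 9 of 10 genes and day 0 replicate 3 the lowest for 9, with member medians of 1.93, -0.35 and -0.74 on replicates 1, 2 and 3. Ptprc, the pan-leukocyte marker CD45, stood at -0.58, -2.55 and -2.57 on these arrays, and Ctss, a protease of macrophages and dendritic cells, at 4.18, 1.59 and 1.29. Summed marker levels on the same arrays did not all follow that order. B cell markers did, at 1.59, 1.40 and 0.735. Macrophage markers were at 178, 34.7 and 66.4, dendritic cell markers at 9.79, 3.4 and 16.7, and T cell markers at 9.68, 3.15 and 57.9. On replicate 3, an array with many uneven spots, 1 gene made most of the dendritic cell sum and 1 most of the T cell sum. These were Zbtb46, which ran from -3.22 to 3.73 over the day 0 arrays, and Cd3g, from -0.53 to 5.80. The part of cell content in this spread was not tested. Among grafts, replicate 3 was the highest for 9 of 10 genes at day 14 and at day 28. In the scan that held day 0 replicates 1 and 2 and day 28 replicate 3, day 28 was higher for 9 of 10 genes, with a median of 2.77; the exception was RT1-DOa at -0.07.

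Genes that act on class II promoters or upstream of Ciita did not all move one way. Of 7 genes for the RFX, NF-Y and CREB proteins of the X and Y boxes, 1 rose and 1 fell at days 7 and 14 and 1 fell at day 28. Nfyb, a subunit of the CCAAT-binding factor NF-Y, fell by 1.07 ± 0.18 (SE), 1.36 ± 0.18 and 0.73 ± 0.18 (adjusted p = 0.00148, 0.000274 and 0.0111). Creb1 rose by 0.99 ± 0.24 at day 7 and 0.90 ± 0.24 at day 14 (adjusted p = 0.0103 and 0.0141); its other probe gave 0.25 and 0.29. The RFX genes Rfx5, Rfxank and Rfxap had differences between -0.39 and 0.21, and none passed. The list's median was -0.21, -0.19 and -0.38. Over all the lists that follow as well, 60 of the 79 named results lost their call with the scan as a fixed block, none turning in sign.

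Of 10 tested genes in a list made for the interferon-gamma route to Ciita, 5 rose at each day. The inhibitor Socs1 fell at day 28 by 1.24 ± 0.34 (adjusted p = 0.0190). The list is wider than that route, since it also holds Spi1 and Irf8, transcription factors of leukocyte types. Spi1, the myeloid transcription factor PU.1, rose by 2.82 ± 0.42, 2.75 ± 0.42 and 2.22 ± 0.42 (adjusted p = 0.000774, 0.000697 and 0.00315). Irf8, a transcription factor of dendritic cells, macrophages and B cells, rose by 2.11 ± 0.25 at day 7 and 2.70 ± 0.25 at day 14 (adjusted p = 0.000210 and 3.83e-05). Its difference at day 28 was 1.44. Jak2, a kinase of the interferon-gamma receptor, rose by 1.55 ± 0.27 at day 28 (adjusted p = 0.00194). At days 7 and 14 its differences were 1.41 and 1.72. Irf1, a transcription factor induced by interferon-gamma, gave 0.35 at day 7, 0.09 at day 14 and 0.19 at day 28 and did not pass on any day. Ifng itself, looked up beside the rule, was well above background on 1 of 12 arrays, day 28 replicate 3, and was not tested.

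Genes that prepare the peptide mostly rose. Of 9 endosomal proteases and partners, 8 rose at day 7 and 6 each at days 14 and 28, with medians of 1.33, 2.29 and 1.65. Ctss, which trims the invariant chain, rose by 4.05 ± 0.62, 4.35 ± 0.62 and 3.49 ± 0.62 (adjusted p = 0.000867, 0.000432 and 0.00218). Lgmn, an endosomal protease, rose by 2.68 ± 0.45, 3.62 ± 0.45 and 2.40 ± 0.45 (adjusted p = 0.00143, 0.000194 and 0.00289). Ctsl, an endosomal protease too, gave 0.31, 0.56 and 0.63 and did not pass.

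Of the 7 co-stimulation genes and receptors of class II, 5 rose on each day. On none of the day 0 arrays was Cd86, the co-stimulatory ligand of CD28, well above background, and it was at least 20.1-fold, 30.2-fold and 15.2-fold higher at days 7, 14 and 28 (adjusted p = 8.59e-06, 4.12e-06 and 2.06e-05); the bound rests on the signal as deposited, and normexp gave differences of 2.09, 2.09 and 1.28. Cd83, which keeps class II at the cell surface, rose by 4.05 ± 0.26 at day 7 and 3.11 ± 0.26 at day 28 (adjusted p = 7.45e-06 and 4.03e-05). Its difference at day 14 was 4.38. Cd4, the T cell co-receptor for class II, rose by 4.70 ± 0.46 at day 14 (adjusted p = 5.16e-05). Its differences at days 7 and 28 were 3.73 and 3.00. Rat macrophages carry CD4 as well.

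The class I pathway, which loads peptides made by the proteasome, had smaller differences: of 13 genes 8 rose at day 7, 5 rose and 1 fell at day 14, and 1 rose at day 28, with medians of 1.24, 0.64 and 0.48. RT1-S3, a class I heavy chain, rose by 1.87 ± 0.35 at day 7 (adjusted p = 0.00260). Calr, the loading chaperone calreticulin, rose by 1.74 ± 0.27, 2.43 ± 0.27 and 1.09 ± 0.27 (adjusted p = 0.000910, 9.84e-05 and 0.0111), and Tapbp, which bridges class I to the peptide transporter, by 2.05 ± 0.62 at day 14 (adjusted p = 0.0245). The Tapbp call was lost without any 1 of the day 14 arrays (1.92 to 2.13), and over the fits without 1 array its value ran from 1.16 to 2.58. Class I genes are near-copies of one another, so their probes may share signal.

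Of the markers of class II-bearing cells, those of macrophages were mostly higher on each graft day, as the family was, and their part in its levels was not tested. Of 8 macrophage genes, 6, 7 and 5 rose at days 7, 14 and 28; the summed level of the 7 with a value on every array was 34.7 to 178 times the 75th percentile at day 0, 394 to 635 at day 7, 510 to 564 at day 14 and 302 to 414 at day 28. Lyz2, the lysozyme of myeloid cells, rose by 3.66 ± 0.57, 3.65 ± 0.57 and 3.29 ± 0.57 (adjusted p = 0.000955, 0.000745 and 0.00194). Cd68 rose by 4.35 ± 0.66 at day 7 (adjusted p = 0.00112), with no value on day 0 replicate 3, where its spots were outliers. At days 14 and 28 its differences were 4.26 and 3.24. Cd163, a scavenger receptor of resident macrophages, was not well above background on any day 0 or day 14 array.

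Of 5 tested dendritic cell genes 2 rose on each day, Clec10a by 2.53 ± 0.56 and Clec9a by 1.59 ± 0.45 at day 7 (adjusted p = 0.00641 and 0.0211). The summed level of that list was 3.4 to 16.7 at day 0, 14.1 to 20.6 at day 7, 11.5 to 18.8 at day 14 and 9.24 to 12.7 at day 28, so day 0 overlapped with each graft day. The value of 16.7 was on day 0 replicate 3, one of the arrays with many uneven spots. Most of it came from 1 gene, Zbtb46, whose day 0 levels ran from -3.22 to 3.73. The other day 0 sums, 3.4 and 9.79, were below all arrays of days 7 and 14. Xcr1, a receptor of one dendritic cell lineage, was not well above background on any array. The Clec9a calls were lost without day 7 replicate 1 or 2 at day 7 (1.53 and 1.52), without day 14 replicate 2 or 3 at day 14 (1.37 and 1.58), and in 7 of the 12 fits without 1 array at day 28, over which the value ran from 0.79 to 1.80. They were lost with normexp as well, where Clec9a gave 1.05, 0.25 and 0.05 on the 3 graft days.

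B cell genes did not share 1 order of days. Of 6, 2 rose and 1 fell at day 7, 1 rose at day 14 and 2 rose at day 28; the summed levels were 0.735 to 1.59 at day 0, 1.56 to 2.56, 1.47 to 1.73 and 1.31 to 1.93 on the graft days in turn. Cd79b, a subunit of the B cell receptor, rose by 3.84 ± 0.52 at day 7 and 3.30 ± 0.52 at day 28 (adjusted p = 0.000422 and 0.00124); with normexp these were 1.75 and 0.96, and the day 28 call was lost. At day 14, the day on which every class II gene had its highest mean, Cd79b stood at -5.58, -4.91 and -5.17, below all of the day 7 and day 28 arrays, and Cd79b and Fcmr, an Fc receptor for IgM, fell from day 7 to day 14. Pax5, the transcription factor of B cell identity, had its highest mean at day 14, when it was 1.99 ± 0.46 above day 0 (adjusted p = 0.00698). Its levels lay between -3.25 and -1.26 in unoperated vein; the day 7 arrays lay between -1.07 and -0.36, those of day 14 between -0.08 and 0.13, and those of day 28 between -1.75 and -1.28. From day 7 to day 14 its difference of 0.80 did not pass. Cr2, a complement receptor of B cells, was well above background on 3 of the 12 arrays in all.

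Of 7 T cell genes, 4, 5 and 1 rose at days 7, 14 and 28, among them Cd3e by 2.44 ± 0.53 at day 7 and 2.57 ± 0.53 at day 14 (adjusted p = 0.00566 and 0.00371). The summed T cell level was 57.9 on day 0 replicate 3 and 46.3 on day 7 replicate 3, the arrays with many uneven spots, and 3.15 to 13.6 on the other 10. Most of both high sums came from 1 gene, Cd3g, which reached 5.80 at day 0 and 5.17 at day 7. Of the vessel wall markers, 6 of 6 smooth muscle genes fell on each graft day, Cnn1, the contractile protein calponin, by 4.15 ± 0.61 at day 7 (adjusted p = 0.000702), and 4, 4 and 2 of 6 endothelial genes fell, Esam, a junction protein, by 3.16 ± 0.26 at day 7 (adjusted p = 2.63e-05), while 1 rose at day 28. Fat cell genes fell in 3 of 4, 4 of 4 and 3 of 4. Of 6 lymph node and lymphatic genes 3, 3 and 2 fell, while 1 rose at day 28. Ccl19 and Ccl21, chemokines of lymphatic vessels and lymph nodes, had day 7 differences of -3.97 ± 0.34 and -3.67 ± 0.54 (adjusted p = 3.19e-05 and 0.000741). Of the 5 tested epithelial and gland genes, 1 fell at day 7, 2 rose at day 14 and 3 rose at day 28.

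**Figure D4:**
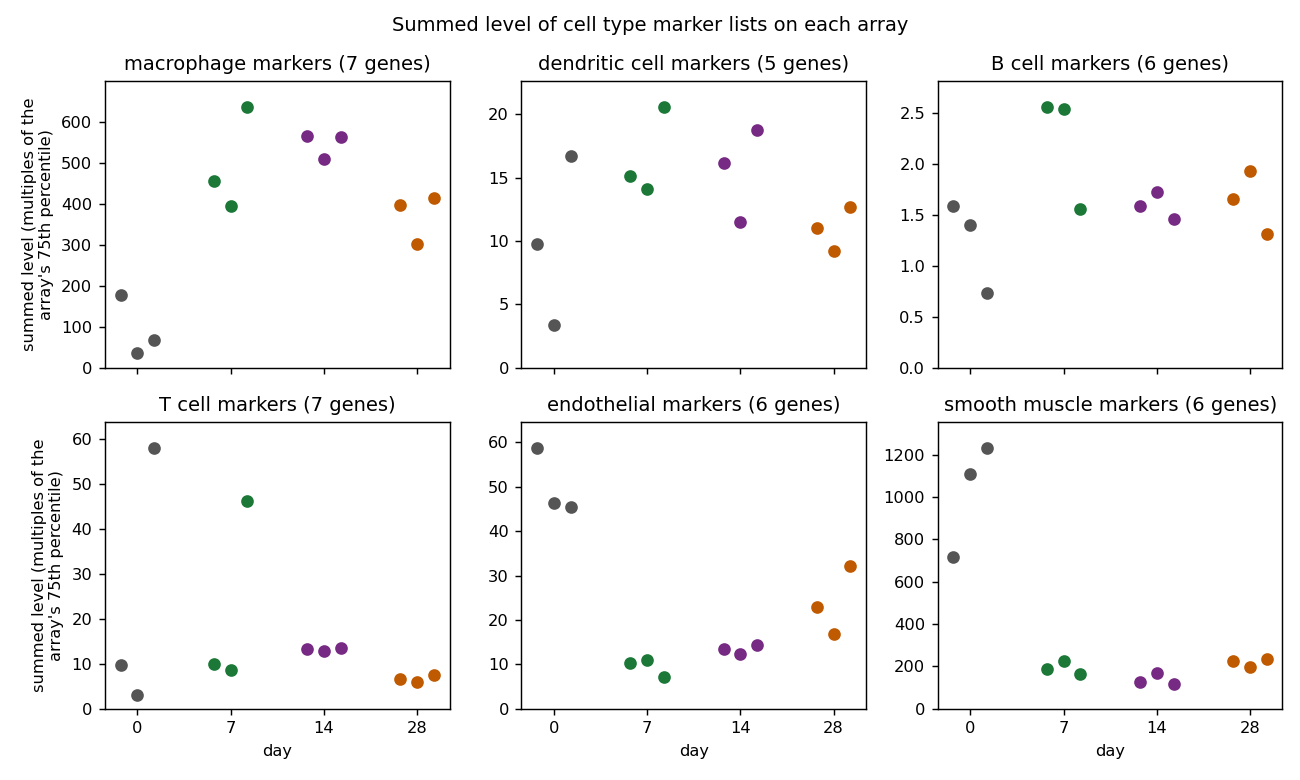
Summed level of 6 lists of cell type markers on each array (y axis, multiples of the array's 75th percentile, from 0) by day (x axis); points are arrays. Macrophage markers are at 302 or more on all graft arrays and at 178 or less at day 0, smooth muscle markers are at 234 or less on all graft arrays and at 717 or more at day 0, and B cell markers span 0.735 to 2.56.

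The genes with patterns most like those of class II were sought among 10153 named genes outside the family that were well above background on all 12 arrays, by the root mean square difference of centred log2 levels. Nearest to Cd74 were Gpr183, an oxysterol receptor of immune cells (0.36), Ptprc (0.37), Tbxas1, the thromboxane synthase (0.44), Rab15 (0.44) and Serpinb8 (0.48). Nearest to Ciita were Cd83 (0.32), Irf5, a transcription factor of myeloid and B cells (0.33), Nek6 (0.37), Laptm5, a lysosomal protein of leukocytes (0.37), and Tnfsf13, the B cell factor APRIL (0.38). Nearest to RT1-Da were Ly49si1, a receptor of the Ly49 family (0.28), Cd14, the lipopolysaccharide co-receptor (0.34), Ctss (0.34), Blnk (0.35) and Rassf5 (0.35). Ranked by distance from Cd74 among 10162 genes, the family included, RT1-DMb was 3rd, RT1-Da 6th, RT1-Ba 9th, RT1-DMa 36th, Ciita 90th and RT1-Db1 268th. RT1-DOb was 1149th; RT1-DOa and RT1-Bb, not well above background on all 12 arrays, are given no rank. Distances depend on the size of a change, so a gene with little change is far from Cd74 whatever its shape, and all 12 arrays enter every distance.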

How the data were processed

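The files are scanner output of 12 Agilent arrays, written by the scanner software of Agilent (Feature Extraction, version 11.0.1.1), per the submitters' processing notes; the deposited processed signal is a background-subtracted intensity for each spot. Control spots and outlier spots were left out, spots of a probe were averaged, and log2 of the deposited intensity minus the array's 75th percentile was used. A probe was tested if most of its spots were well above background on at least 3 arrays (21063 of 24684 probes; 14294 carry 1 gene symbol, by matching RefSeq transcripts, and 10390 none). A gene with several probes was given by its brightest. Means of the 4 days were fitted in limma 3.58.1 (R 4.3.3) over all tested probes, with Benjamini-Hochberg adjustment and a threshold of 0.05; the residual degrees of freedom were 8 and the prior ones 2.32. All adjusted p-values are from this two-sided test. The number of arrays limits the precision, and a value was missing for 478 probe and array pairs. The script was tested on simulated data.

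The authors' deposited table of processed values, which is on a log2 scale judging by its values, served as an alternative; how its arrays were centred is not given in the sources used here. Its column medians were 7.149 to 7.153, and each column correlated best with its own array (r of 0.9983 to 0.9995 across probes). normexp was run on the median signal, since the files hold no mean signal.

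The members, the 14 lists (119 genes) and the tests were chosen with earlier results of these data known. Every member is described, and from each other list the 2 called genes with the largest difference from day 0 on each day. Other named genes (Socs1, Irf1, Ifng, Ctsl, the RFX genes, Ptprc, RT1-O1, Zbtb46, Cd3g and markers not detected) were chosen after their values were seen.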

Additional observations from a re-analysis of the deposited data

Results flagged for a closer look

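A difference between graft days passed the threshold in limma for 3 results of the class II family, all involving day 14. RT1-Bb was higher at day 14 than at day 7 by a fitted 13.85 on the log2 scale. Its day 7 arrays were not well above background, so on the signal as deposited only the bound of at least 5062-fold can be read. With normexp the RT1-Bb difference was 8.161. RT1-Db1 was higher at day 14 than at day 7 by 2.55, and lower at day 28 than at day 14 by a difference of -2.58. All 3 differences had the same sign in each fit that left out 1 array.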

How the results depend on the processing

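No paired analysis was possible because the labels state no pairing. The array titles hold different sample names but all end in the same replicate label, so the replicate numbers are only names. Over 11 alternative settings and 12 fits that each left out 1 array, the members' median difference kept its sign in all 6 comparisons. Leaving out 1 array gave medians of 3.01 to 4.235 at day 7, 4.022 to 5.464 at day 14 and 2.595 to 3.587 at day 28 against day 0, of 0.542 to 0.9541 for day 14 against 7, of -1.22 to -0.9176 for day 28 against 14 and of -0.4671 to -0.06866 for day 28 against 7. The called probes over the whole array were 6977, 7901, 7136, 687, 944 and 375 in these 6 comparisons in turn. Leaving out 1 array gave 5009 to 7879, 5722 to 8883, 4573 to 8414, 225 to 1263, 163 to 2267 and 34 to 643. With normexp they were 3222, 3626, 2667, 59, 156 and 97, and with the scan as a fixed block 55, 1034, 1363, 28, 124 and 0. With only the compared arrays they were 2888 at day 7 and 4635 at day 28 against day 0, 6353 for day 28 against 14 and 178 for day 28 against 7, the last being 115 with a random scan block. For the 3 comparisons between graft days, array quality weights gave 10670, 16424 and 13440, and leaving out both arrays with many uneven spots gave 2427, 4804 and 934. Among members, the sign turned for several differences, none of which had passed. RT1-Bb at day 28 against day 0 gave 2.376 without day 28 replicate 2, against -3.956 without replicate 3. It turned with array quality weights (1.18) and the fixed scan block (2.43) as well. RT1-DOa turned at day 7 against day 0 with the fixed scan block (-0.07). At day 28 against day 0 it turned with that block (-0.07), with array quality weights (-0.02) and without both arrays with many uneven spots (-0.25). At day 28 against 7 it turned with array quality weights (-0.5644), with normexp (-0.69) and without both those arrays (-0.51). For day 14 against 7, RT1-DOa and RT1-DOb turned with normexp (-0.22 and -0.62). For day 28 against 7, RT1-Db1 and RT1-DMb did so (0.09 and 0.15). RT1-Db1 turned there in the authors' table as well (0.002). In fits without 1 array these 2 genes reached 0.30 and 0.09. Among other genes, Prox1 turned at day 7 with normexp (0.2762), where it was not well above background. Of the 79 named results of other genes, 60 lost their call with the scan as a fixed block, 17 with normexp and 13 with only the compared arrays (at day 7 Cd3e, Clec10a, Clec9a, Creb1, Epcam and Lck), none with a turned sign; with quantile normalization or the authors' processed table none lost it. The causes were not tested. No scan held all 4 days, and a probe at background gives only a bound.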

Other observations

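Other genes of the same complex, looked up after the values above were seen, did not share 1 pattern. RT1-Db2, a class II beta chain gene beside RT1-Db1, was well above background on 3 arrays only, day 14 replicates 2 and 3 and day 28 replicate 2. RT1-Ha, a class II gene of the rat complex, ran from -2.01 to 0.40 over the 12 arrays.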
